A study of Rattus norvegicus with 13 samples.

Results

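The genes described here are those of the cytosolic ribosomal proteins, the protein part of the machine that makes all other proteins. They were taken by name from the arrays' own annotation: Rpl or Rps followed by a digit, or Rplp0, Rplp1, Rplp2 and Rpsa, without the ribosomal S6 kinases. This gave 87 of 26269 gene names, carried by 151 probes. A gene counted as measured where the scanner software marked a probe as well above background throughout at least 1 group, which held for 85 of the 87 and for 17250 genes in all. Rpl27-ps1 and Rps19bp1 did not pass. Of the 85, 77 were subunit genes (46 of the large subunit and 31 of the small), 6 were paralogues (Rpl3l, Rpl7l1, Rpl10l, Rpl22l1, Rpl36al and Rps4y2) and 2 carried pseudogene names (Rpl12-ps1 and Rps2-ps7). On all 13 arrays, 84 of the 85 were above background.

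The tissue was frontal cortex of male Sprague-Dawley rats, taken 1 month after head trauma or sham surgery. Rotational trauma (3 samples) had a sham group of its own (3 samples), and so did lateral fluid percussion trauma (3 trauma and 4 sham samples). Rotational trauma accelerates the head quickly about an axis, and fluid percussion sends a pressure pulse onto the exposed dura. Shams were anaesthetised and operated on without receiving the trauma. The labels give neither the age of the animals nor the side of the cortex. Each model had a slide to itself, on which trauma and sham filled different columns.

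A ribosome has a small subunit, which reads the messenger RNA, and a large subunit, which joins the amino acids. Most of its proteins are needed in equal numbers, and the messengers of ribosomal proteins are among the most abundant in nearly every cell. Most of these messengers begin with a C and a run of pyrimidines, the 5′ terminal oligopyrimidine tract, through which mTOR signalling controls their translation. In neurons, ribosomal protein messengers are also found in axons and dendrites.

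The start of these messengers was examined first, since it is the element that the family is known to share. A RefSeq promoter table (assembly GRCr8) held 62 of the 77 subunit genes. The 30 bases around the annotated start, 15 before it and 15 from it onwards, are shown 5′ to 3′ for 6 genes that recur in the results, with the longest pyrimidine run near the start in capitals.
Rplp0: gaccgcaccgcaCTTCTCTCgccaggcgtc
Rpl10: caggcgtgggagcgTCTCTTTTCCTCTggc
Rpl19: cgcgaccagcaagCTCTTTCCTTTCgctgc
Rps7: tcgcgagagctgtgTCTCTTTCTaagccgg
Rps10: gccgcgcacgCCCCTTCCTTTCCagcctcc
Rpl11: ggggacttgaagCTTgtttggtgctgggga
These windows lie at chr12:46718376-46718405 on the minus strand (Rplp0), chrX:157205835-157205864 on the plus strand (Rpl10), chr10:83519049-83519078 on the plus strand (Rpl19), chr6:50999431-50999460 on the minus strand (Rps7), chr20:5700730-5700759 on the minus strand (Rps10) and chr5:153560788-153560817 on the minus strand (Rpl11). The runs were 8 bases in Rplp0, 13 in Rpl10, 12 in Rpl19, 9 in Rps7 and 13 in Rps10. In Rpl11 the run was 3 bases, too short for the rule used below.

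A C followed by at least 4 pyrimidines began exactly at the annotated start in 24 of the 62 subunit genes (38.7%), against 2.63% of the 27457 promoters in the table. Allowing the run to begin up to 5 bases to either side gave 40 of 62 (64.5%) against 17.0%. Over the 300 bases from 250 before the start to 50 after it, CCGGAAG on either strand, the core bound by ETS factors, was found in 20 of 62 (32.3%) against 9.22%. TATAAA, the TATA box, was found on either strand in 6 of 62 (9.68%) against 14.3%. Such matches describe the sequence only.

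The probes that the results turn on are 60 bases long and are given 5′ to 3′ with their rn4 coordinates from the array files. Rps7 and Rps16 had the smallest adjusted p-values between the sham groups. Rpl3 and its paralogue Rpl3l behaved differently from each other, and Rpl19 is shown by the second of its probes because the first varied widely within groups.
Rps7: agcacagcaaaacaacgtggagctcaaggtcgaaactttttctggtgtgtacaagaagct
Rps16: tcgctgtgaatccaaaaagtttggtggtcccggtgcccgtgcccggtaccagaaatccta
Rpl3: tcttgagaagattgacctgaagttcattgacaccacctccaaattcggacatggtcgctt
Rpl3l: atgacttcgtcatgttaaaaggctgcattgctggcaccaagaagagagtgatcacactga
Rpl19: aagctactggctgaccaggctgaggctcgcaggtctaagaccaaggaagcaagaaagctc
The Rps16 probe lies at chr1:83463220-83463279 on the plus strand, the Rpl3 probe at chr7:118314786-118314845 on the minus strand and the Rpl3l probe at chr10:13991825-13991884 on the plus strand. The Rps7 probe spans chr6:46512040-46512391 on the minus strand, 352 positions for 60 bases, and the Rpl19 probe spans chr10:86791553-86791967 on the plus strand, 415 positions, so that both cross a gap in the genome. No rn4 annotation of exons was used here.

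Values below are log2 processed signals minus the array's 75th percentile, so that 0 is the upper quartile of the array. The signal depends on the probe, and levels are compared only within a probe. Effects are log2 differences with the standard error (SE) of a limma fit over all 13 arrays, and a gene passed where its Benjamini-Hochberg adjusted p over all 17250 genes was under 0.05. The shares of spots well above background, 67.0% to 74.1%, followed the slide column (72.7% to 74.1% in column 1 and 67.0% to 72.5% in column 2), and within groups the correlation across subunit genes, which are not independent of each other, ran from 0.991 to 0.999. Column 1 held rotational sham and percussion trauma, and column 2 held rotational trauma and percussion sham. Column therefore cannot be told apart from trauma within a model, or from slide and model between shams. The order was opposite in the models, so column can also enter the difference of the trauma contrasts. Its part in the results was not tested. Markers of cortical neurons, interneurons, astrocytes, oligodendrocytes, microglia and endothelium were measured in full (6 of 6 each).

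After rotational trauma the ribosomal protein genes differed little from sham. Of the 85, 63 were higher and 22 lower than in rotational sham, with a median log2 difference of 0.038 (all genes -0.006) and a range from -0.33 to 0.45. With median scaling 49 were higher and 36 lower, and without one array at a time the higher members numbered 43 to 75. None passed the test, against 4 of all 17250 genes (0.0232%). At an unadjusted p under 0.05 the members again numbered 0, against 6.60% of all genes. The 95% interval of the difference lay within 0.5 on the log2 scale on either side of 0, a 1.41-fold change, for 82 of 85 members (96.5%), against 67.7% of all genes. The exceptions were Rpl3l, Rpl10l and Rpl19.

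Percussion trauma gave an equally flat picture. Of the 85 genes, 34 were higher and 51 lower than in percussion sham, with a median of -0.012 (all genes -0.005) and a range from -0.64 to 0.19. The sign of this median turned under other scalings, to 0.026 with quantile normalization, 0.030 with the percentile taken over detected probes and 0.019 in the authors' deposited table. No member passed, and of all genes 0 passed (0%). At an unadjusted p under 0.05 there were 3 members (3.53%), Rpl3l, Rpl23a and Rpl11, against 11.3% of all genes. For 81 of 85 members (95.3%) the 95% interval lay within 0.5, against 68.1% of all genes, and the exceptions were Rpl3l, Rpl10l, Rpl19 and Rpl23a. In both contrasts together, 81 members, among them 75 of the 77 subunit genes, had intervals inside this bound. As these are bulk tissue samples, fewer cells of a type and less RNA per cell cannot be told apart.

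**Figure D1:**
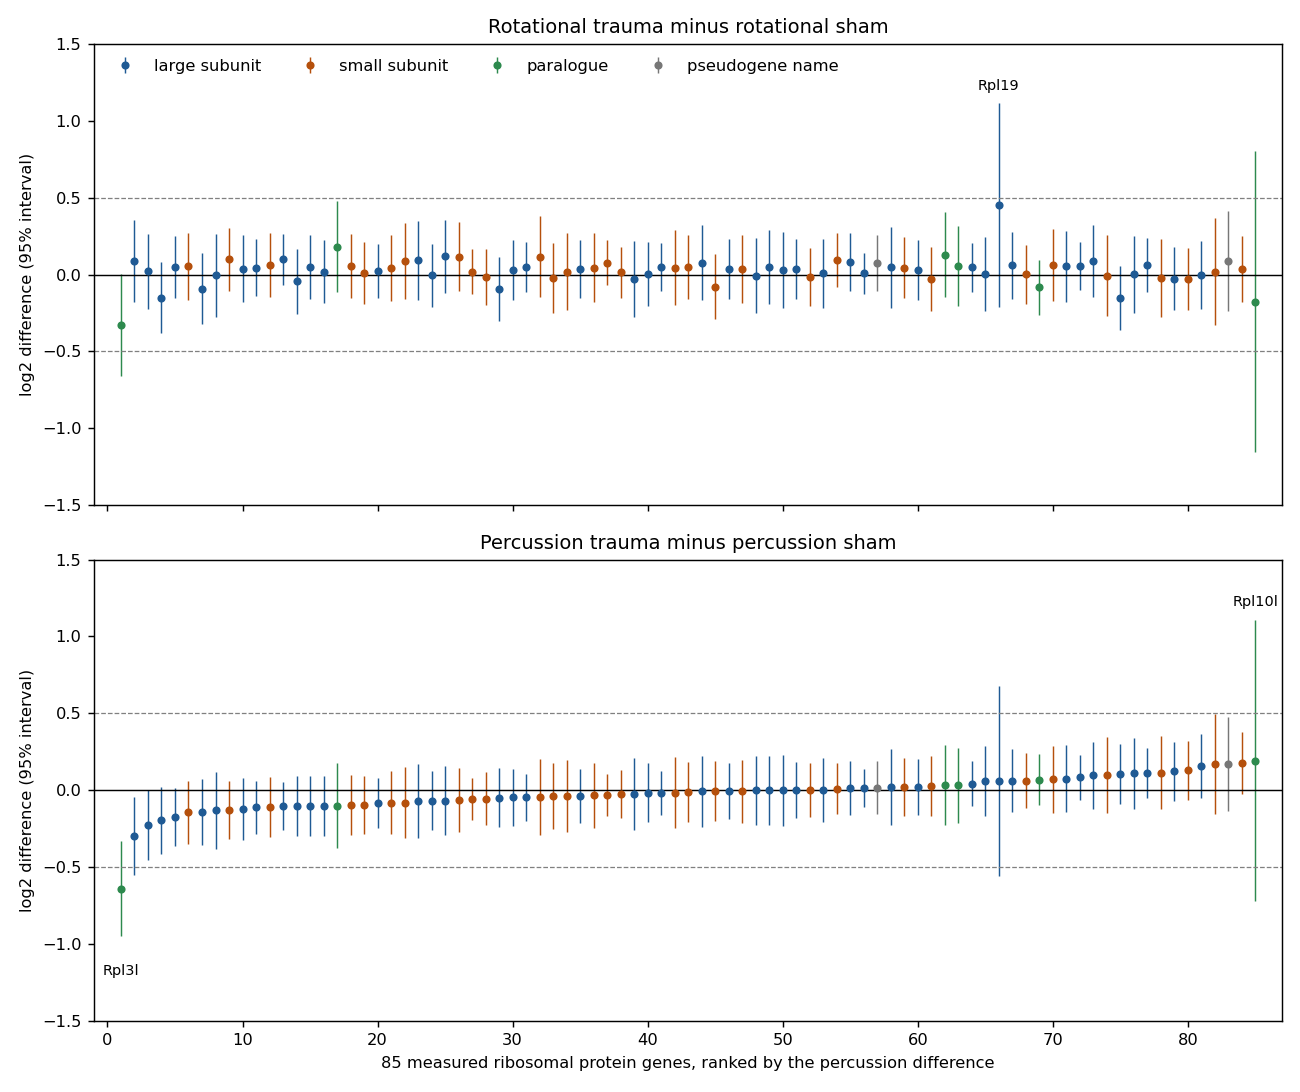
Log2 difference between trauma and sham (y axis, points, with 95% intervals as bars) of the 85 measured ribosomal protein genes, ranked by the percussion difference (x axis), for the rotational model (top) and the percussion model (bottom). Dashed lines mark 0.5 on either side of 0. Most points sit near 0 in both panels, and Rpl19, Rpl3l and Rpl10l have intervals that cross the dashed lines.

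The large and the small subunit gave like values. The 46 large subunit genes had medians of 0.036 after rotational and -0.013 after percussion trauma, and the 31 small subunit genes had 0.038 and -0.027. The stalk, on which the elongation factors land, is built from Rplp0, Rplp1 and Rplp2. Rplp0 read 7.25, 7.14 and 7.35 in rotational sham, 7.42, 7.14 and 7.18 in rotational trauma, 7.14, 7.14 and 7.36 in percussion trauma and 6.99, 7.19, 7.07 and 6.97 in percussion sham. Its groups overlapped in both models, with differences of -0.004 (SE 0.10, limma adjusted p = 0.999) and 0.16 (SE 0.09, adjusted p = 0.554). Rplp1 differed by 0.007 and 0.002, and Rplp2 by 0.05 and -0.05.

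Rpl5 and Rpl11 bind 5S ribosomal RNA and, when ribosome assembly is disturbed, restrain the p53 ligase Mdm2. Rpl5 differed by 0.04 after rotational and -0.01 after percussion trauma (SE 0.09 and 0.08). Rpl11 read 5.88, 5.79 and 5.88 in rotational sham, 5.88, 5.84 and 5.90 in rotational trauma, 5.70, 5.46 and 5.97 in percussion trauma and 5.95, 6.07, 5.87 and 5.87 in percussion sham. In the percussion model 2 trauma arrays lay below all shams and the third within their range, and the difference of -0.23 (SE 0.10) did not pass (limma adjusted p = 0.438).

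At the exit of the peptide tunnel, where new chains leave and targeting factors dock, 8 genes were measured: Rpl17, Rpl19, Rpl22, Rpl23a, Rpl26, Rpl31, Rpl35 and Rpl39. None passed in either trauma contrast, and their medians were 0.063 and -0.001. Rpl23a, which forms part of the docking site of the signal recognition particle, read 3.13, 3.05 and 3.12 in rotational sham, 3.05, 3.36 and 3.17 in rotational trauma, 2.94, 2.63 and 3.14 in percussion trauma and 3.09, 3.26, 3.14 and 3.31 in percussion sham. The percussion groups overlapped through 1 trauma array, and the difference of -0.30 (SE 0.11) did not pass (limma adjusted p = 0.377). A second Rpl23a probe gave -0.16. Rpl22 differed by 0.08 and -0.01 and Rpl39 by 0.09 and 0.10, with SE between 0.10 and 0.11.

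Rpl19 had the largest rotational difference of the 85 members, from a probe that varied widely within groups. The chosen probe read 6.27, 5.39 and 5.81 in rotational sham and 6.79, 6.58 and 5.45 in rotational trauma, a difference of 0.45 (SE 0.30, limma adjusted p = 0.911). Without one array at a time this difference ran from 0.026 to 0.86. Its second probe, whose sequence is printed above, read 6.07, 6.07 and 6.15 in rotational sham and 6.15, 6.05 and 6.19 in rotational trauma, a difference of 0.03. The first probe thus ranged over more than 1 log2 unit within a group of 3 arrays on which the second was steady.

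Other large subunit genes moved by small amounts. Rpl10, which completes the peptidyl transferase centre late in assembly, read 6.35, 6.26 and 6.36 in rotational sham and 6.41, 6.43 and 6.43 in rotational trauma. Its rotational groups did not overlap, but the difference was only 0.10 (SE 0.08, limma adjusted p = 0.955), and after percussion trauma it was -0.10. Rpl6 differed by -0.15 after rotational and 0.11 after percussion trauma, Rpl38 by -0.15 and -0.20, Rpl10a by 0.05 and -0.18, Rpl18 by 0.06 and 0.11, and Rpl13a, a regulator of inflammatory transcripts when released from the ribosome, by 0.02 and -0.10. None of these passed. Rpl3, which reaches towards the catalytic centre, had the smallest spread within groups of any member (SD 0.046). It read 5.61, 5.59 and 5.64 in rotational sham, 5.61, 5.58 and 5.67 in rotational trauma, 5.56, 5.53 and 5.63 in percussion trauma and 5.61, 5.60, 5.52 and 5.51 in percussion sham. Both trauma differences of Rpl3 were 0.01 (SE 0.06), with 95% intervals from -0.12 to 0.14 and from -0.11 to 0.14.

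On the small subunit, the 12 genes of the head had medians of 0.037 after rotational and -0.030 after percussion trauma, with no gene past the test. Rps3, which lines the entry channel of the messenger, read 6.01, 5.88 and 6.03 in rotational sham, 6.15, 5.92 and 5.97 in rotational trauma, 5.81, 5.79 and 6.04 in percussion trauma and 5.65, 5.85, 5.71 and 5.60 in percussion sham. The percussion groups overlapped, and the difference of 0.18 (SE 0.09) did not pass (limma adjusted p = 0.488). Rps19, the gene most often mutated in Diamond-Blackfan anaemia, differed by 0.01 and -0.09. Rps27a, which is made as a fusion with ubiquitin, differed by 0.06 and 0.07. Rps6, the phosphorylated target of the S6 kinases, differed by 0.05 and 0.02, Rpsa by 0.02 and 0.17, and Rps13 by 0.10 and -0.13. Rps28 differed by 0.10 and 0.01.

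Groups that do not overlap give a second view. After rotational trauma, 3 members had every trauma array above every sham array (Rpl10, Rpl27 and Rps6), against 6.87% of all genes, and 2 had every trauma array below (Rpl3l and Rpl7l1), against 8.02%. After percussion trauma 0 members were above, against 5.07% of all genes, and 1 was below (Rpl3l), against 4.43%. As shares of the 85 members, these counts stood below the shares of all genes.

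**Figure D2:**
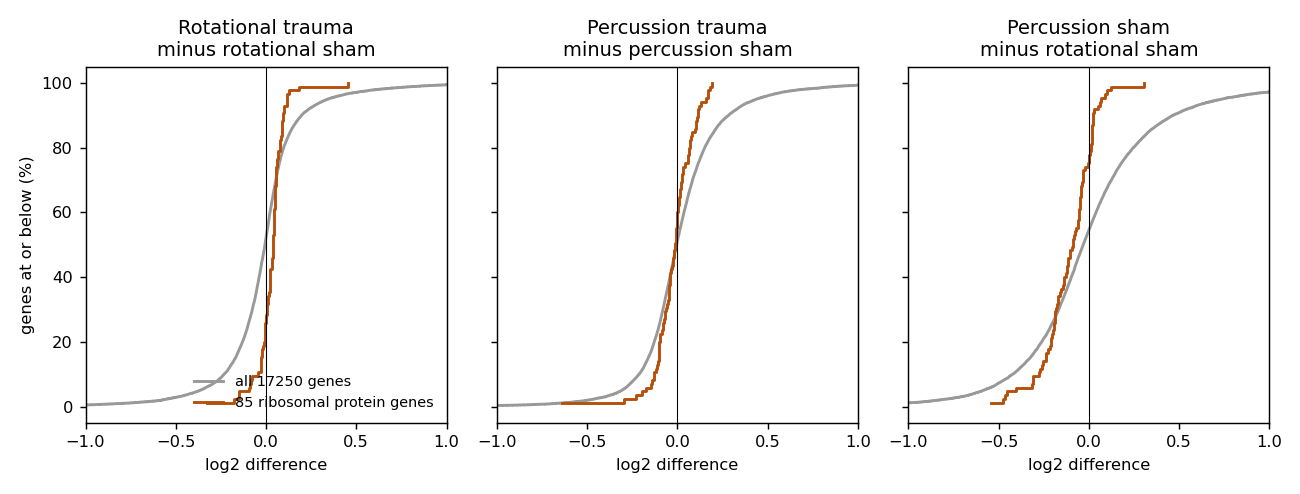
Cumulative share of genes (y axis, percent) at or below a log2 difference (x axis) for the 85 ribosomal protein genes and for all 17250 genes, in the 3 contrasts named above the panels. The curve of the members is steeper than that of all genes in each panel and lies to its left at the middle of the sham against sham panel, where the median is -0.087 against -0.031.

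The 6 paralogues had medians of -0.013 after rotational and 0.032 after percussion trauma, and none passed. Rpl3l, the paralogue of Rpl3 found in striated muscle, lay close to background. It was well above it on 11 of 13 arrays, on 2 of 3 in percussion trauma, on 3 of 4 in percussion sham and on all 3 in each rotational group. Rpl3l read -4.26, -4.29 and -4.25 in rotational sham, -4.65, -4.63 and -4.51 in rotational trauma, -5.76, -5.20 and -5.19 in percussion trauma and -4.97, -4.82, -4.50 and -4.69 in percussion sham. In each model every trauma array lay below every sham array. The difference was -0.33 (SE 0.15, limma adjusted p = 0.763) after rotational trauma and -0.64 (SE 0.14, adjusted p = 0.224) after percussion trauma, the latter with a 95% interval from -0.95 to -0.33, a 1.56-fold lower signal. Neither passed over all genes. The percussion value fell in size to -0.24 (adjusted p = 0.370) with another background correction. Across the settings that changed the processing and the fits without one array at a time, it passed only where dim probes were kept (adjusted p = 0.0172). In that setting 2872 of all genes were called lower and 240 higher after percussion trauma, so a lower call was common there.

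Rpl10l, a paralogue of Rpl10 known from testis, had the largest spread within groups (SD 0.608). It read -3.00, -1.62 and -2.49 in rotational sham, -2.16, -2.07 and -3.41 in rotational trauma, -3.07, -3.20 and -1.88 in percussion trauma and -2.98, -2.58, -3.17 and -2.91 in percussion sham. With such spread, its 95% intervals reached from -1.15 to 0.80 and from -0.72 to 1.11, the widest of the members. Rpl22l1, the partner paralogue of Rpl22, differed by 0.18 (SE 0.14) and -0.10 (SE 0.13). Rpl36al differed by 0.06 and 0.03, Rpl7l1 by -0.08 and 0.07, and Rps4y2, a paralogue of Rps4x, by 0.13 and 0.03.

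Whether the 2 injuries differed in their effect was tested by the difference of the trauma contrasts, percussion minus rotational. The member median was -0.050 (all genes -0.001), 58 of 85 members were lower and none passed, as for all genes (0%). At an unadjusted p under 0.05 there was 1 member (1.18%), Rpl23a, against 7.99% of all genes. Its difference was -0.39 (SE 0.17, limma adjusted p = 0.616). Among others with small unadjusted p, Rpl10 was at -0.20, Rps13 at -0.23 and Rpl10a at -0.22 on one side, and Rpl6 at 0.26, Rpl7l1 at 0.15, Rps14 at 0.16 and Rplp0 at 0.16 on the other, with SE between 0.10 and 0.14. The majority of lower members turned to 44 higher and 41 lower with the percentile taken over detected probes.

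Between the 2 sham groups, 7 of the 85 members passed, all lower in percussion sham. One of them, Rpl3l, had entered through its higher rotational groups and was above background on 3 of 4 percussion shams. Its call is therefore no support for a lower signal, although the counts of 7 given here include it. With Rpl3l included, the 7 were 8.24% of members. Of all genes 22.0% passed in either direction, 10.9% as lower and 11.1% as higher. At an unadjusted p under 0.05 there were 17 members (20%), against 36.8% of all genes. The member median was -0.087 (all genes -0.031), and 66 of 85 members were lower in percussion sham. The lower members numbered 48 with quantile normalization, 47 in the authors' deposited table and 80 with median scaling. Over the 13 other settings the median ran from -0.154 to -0.016. Sham groups lay on different slides and in different columns, so slide, column and model cannot be told apart. In the higher direction 0 members passed, but Rps28 did so with quantile normalization (0.19, limma adjusted p = 0.0425) and in the authors' deposited table (0.20, adjusted p = 0.0443), and with each array scaled to its median 63.2% of the called genes were lower in percussion sham rather than 49.7%.

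Rps7, a protein of the small subunit body that is needed to process its ribosomal RNA, had the smallest adjusted p. It read 5.51, 5.55 and 5.54 in rotational sham, 5.71, 5.56 and 5.48 in rotational trauma, 4.99, 4.96 and 5.24 in percussion trauma and 4.95, 5.17, 5.16 and 5.03 in percussion sham. All 7 arrays of the percussion slide lay below all 6 of the rotational slide. The sham difference was -0.46 (SE 0.09, limma adjusted p = 0.00617), a 1.37-fold lower signal, while the trauma differences within slides were 0.05 and -0.01.

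Rps16, whose tail reaches the decoding site from the head of the small subunit, read 5.85, 5.66 and 5.79 in rotational sham, 5.67, 5.72 and 5.84 in rotational trauma, 5.29, 5.17 and 5.51 in percussion trauma and 5.29, 5.54, 5.36 and 5.26 in percussion sham. Here too the slides did not overlap, and the sham difference was -0.40 (SE 0.10, limma adjusted p = 0.0156), a 1.32-fold lower signal. A second Rps16 probe went the other way. It lies 240 bases further along the gene on rn4 and read 0.83, 0.99 and 0.89 in rotational sham, 2.47, 0.88 and 0.95 in rotational trauma, 2.69, 2.91 and 3.07 in percussion trauma and 2.77, 3.08, 3.00 and 2.96 in percussion sham. That probe was higher by 2.05 in percussion sham (adjusted p over all passing probes 0.00201), and the mean of both Rps16 probes was higher by 0.82 (adjusted p = 0.0059). The direction for Rps16 between the sham groups therefore depends on the probe.

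**Figure D3:**
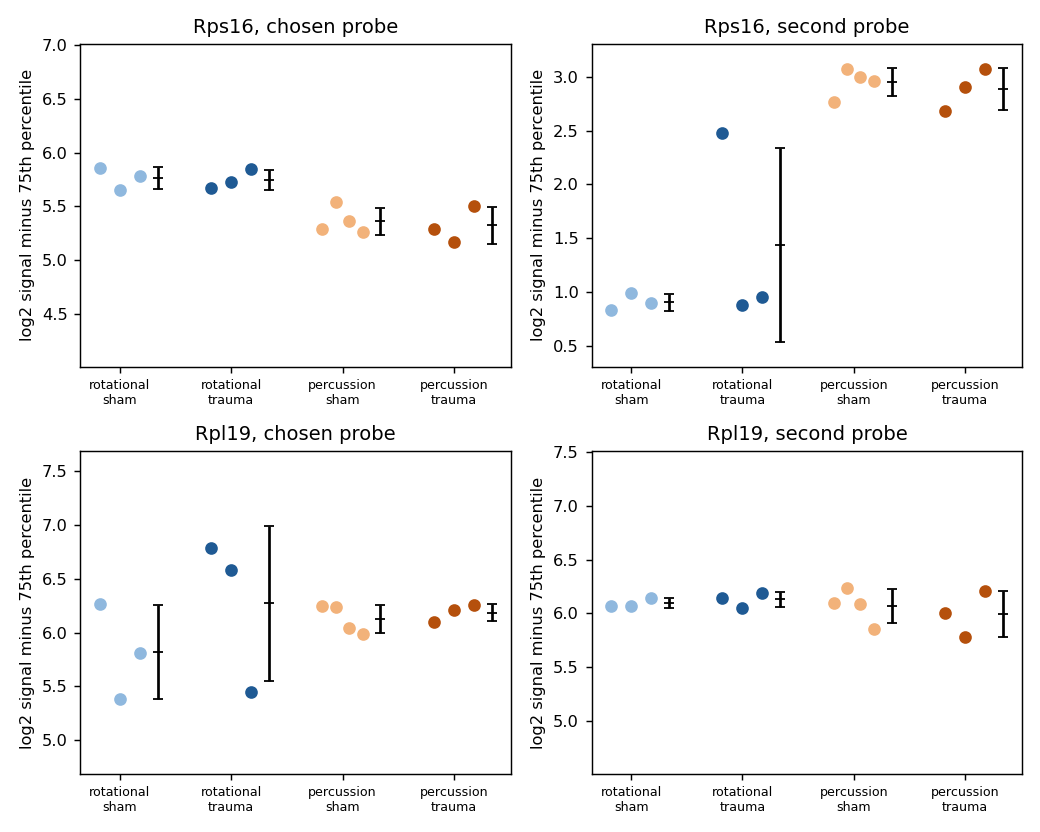
Log2 signal minus the array's 75th percentile (y axis) of the chosen and the second probe of Rps16 (top) and Rpl19 (bottom) by group (x axis). Points are arrays, bars are the mean ± SD, and each panel spans 3 log2 units. The chosen Rps16 probe is lower and the second probe higher on the percussion slide, where the second reads 2.69 to 3.08, and the scatter of the first Rpl19 probe in the rotational groups is missing from the second.

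Rps14, of the small subunit platform and known from the anaemia of chromosome 5q loss, read 6.66, 6.60 and 6.68 in rotational sham and 6.23, 6.47, 6.37 and 6.26 in percussion sham. Its sham difference was -0.31 (SE 0.09, limma adjusted p = 0.0263). Its 2 other probes gave -0.26 (adjusted p over all passing probes 0.0407) and -0.14 (adjusted p = 0.356). Rps10, of the head, read 6.50, 6.41 and 6.50 in rotational sham and 6.17, 6.35, 6.17 and 6.08 in percussion sham, a difference of -0.28 (SE 0.09, adjusted p = 0.0452). The Rps10 call was lost in the authors' deposited table (-0.14, adjusted p = 0.0953), with the replicate block (adjusted p = 0.125) and in 8 of 13 fits without one array. Unlike Rps7 and Rps16, both genes overlapped between slides once the trauma arrays were included, at 6.37 to 6.60 for Rps14 and 6.09 to 6.38 for Rps10 in percussion trauma.

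The 3 other members that passed were not canonical subunit genes. Rpl7l1, a paralogue of Rpl7 that acts in large subunit assembly, read 1.07, 1.21 and 1.09 in rotational sham and 0.73, 0.81, 0.82 and 0.89 in percussion sham, a difference of -0.31 (SE 0.08, limma adjusted p = 0.0166). Rpl3l, with the values above, differed by -0.47 (SE 0.14, adjusted p = 0.0344), a call on a gene that passed the background filter only through the rotational groups. Rps2-ps7, a pseudogene name whose probe may also take up Rps2 messenger, read -1.07, -1.17 and -1.14 in rotational sham and -1.61, -1.28, -1.86 and -1.62 in percussion sham, a difference of -0.46 (SE 0.14, adjusted p = 0.036). Rps2 itself differed by -0.10 (SE 0.08). With normexp background correction the limma adjusted p was 0.0517 for Rps14 and 0.0625 for Rps2-ps7, and with the replicate block it was 0.0779 and 0.0760. Rps14 was also lost with the mean of its probes (0.0619), and Rpl3l with an intensity trend (0.0747). Rps7 passed under each of the 13 other settings and without each array in turn.

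**Figure D4:**
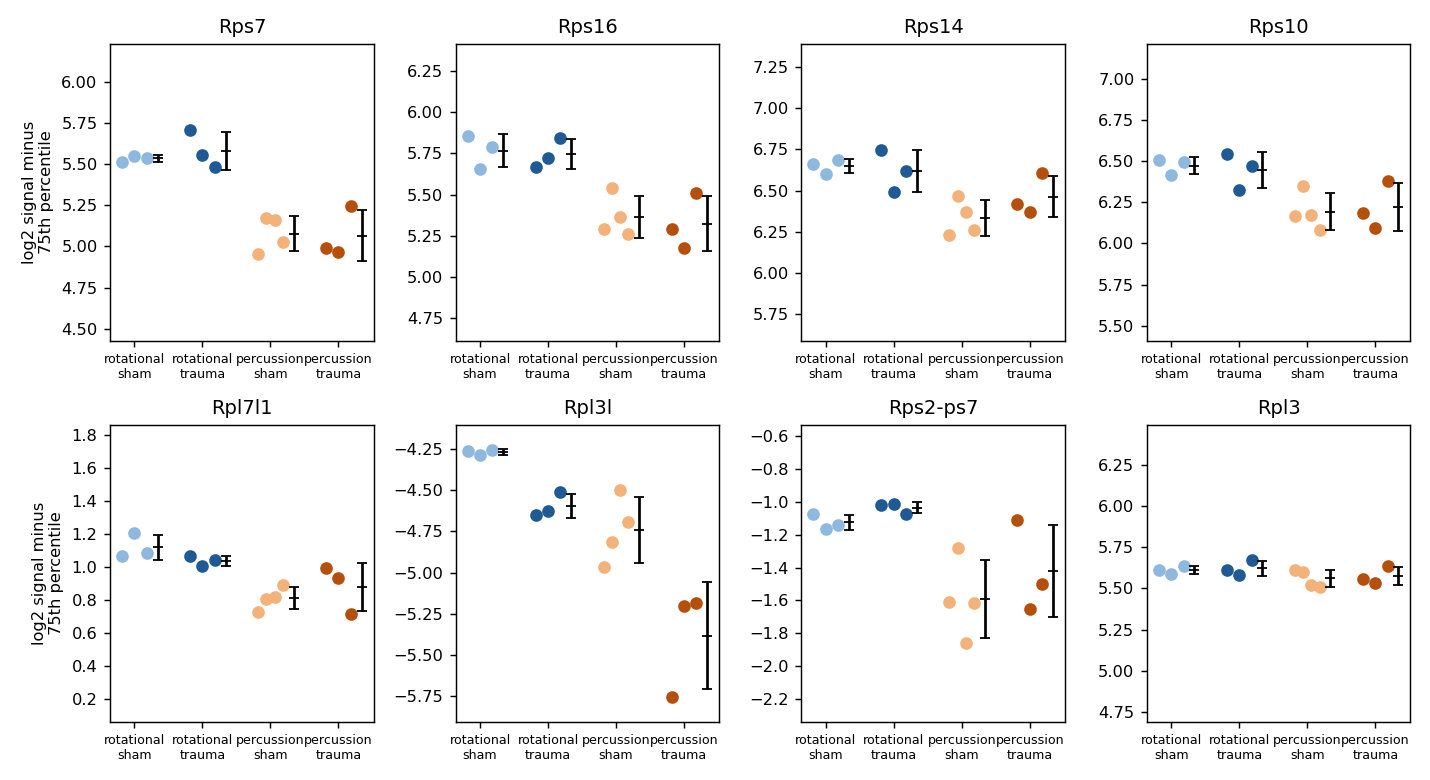
Log2 signal minus the array's 75th percentile (y axis) of the 7 members that passed between the sham groups and of Rpl3, the steadiest member, by group (x axis). Points are arrays, bars are the mean ± SD, and each panel spans 1.8 log2 units. Percussion sham sits below rotational sham in the 7 called members, with Rps7 at 4.95 to 5.17 against 5.51 to 5.55, while Rpl3 stays between 5.51 and 5.67.

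By part of the ribosome, the sham calls were 4 of 31 small subunit genes (Rps7, Rps10, Rps14 and Rps16) and 0 of 46 large subunit genes, with medians of -0.094 and -0.070. These are shares of 12.9% and 0%, beside 22.0% of all genes. At an unadjusted p under 0.05 there were 7 genes of the small subunit (22.6%) and 7 of the large (15.2%), against 36.8% of all genes. The smallest adjusted p of the large subunit was that of Rpl36, at -0.31 (SE 0.11, limma adjusted p = 0.0704). Just outside the threshold stood Rps3 at -0.27 (SE 0.09, adjusted p = 0.0528), which passed under 5 of 13 other settings, such as median scaling (-0.34, adjusted p = 0.0316). Second probes of both genes were less low. The first probe's sham difference minus the second's was -0.26 for Rpl36 and -0.14 for Rps3. The groups did not overlap for 18 members that were lower in percussion sham, against 21.7% of all genes, and for 1 that was higher, Rps28, against 18.5%. Rps28 differed by 0.12, Rpl19 by 0.31, Rpl23a by 0.10 and Rpl11 by 0.09, none past the test. The count of 7 was 2 without rotational sham 1, 2 or 3 in turn and 3 without percussion sham 1 or percussion sham 4, and 9 at most without any other array. Calls over all genes fell in the same fits, from 1907 higher and 1882 lower. They were 1173 and 909, 1228 and 1067, and 972 and 790 without rotational sham 1, 2 and 3. Without percussion sham 1 they were 1424 and 1201, and without percussion sham 4 they were 1601 and 1492.

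The subunit genes moved together from array to array. Over the 13 arrays, each gene's deviation from its group mean was correlated with the mean deviation of the other subunit genes. The median r was 0.895 over the 77 subunit genes, and 73 of them exceeded 0.5. As a description over the same arrays, which share library and scan, other lists were correlated with the same mean of the subunit genes. The median was 0.532 for 72 mitochondrial ribosomal protein genes (39 over 0.5), 0.370 for 40 proteasome genes (16 over 0.5) and 0.083 for all other genes (19.9% over 0.5). No list was correlated with its own mean or matched in brightness. The values therefore do not show which family moves together most closely. Percussion trauma 3 had 76 of 77 subunit genes above the group mean and percussion trauma 2 had 4. Percussion sham 2 had all 77 above and percussion sham 4 had 8. In rotational sham 2 there were 3 and in rotational trauma 2 there were 7, against 65 in rotational trauma 1. Of all other genes, between 42.3% and 57.0% were above their group mean on every array. The related families leaned the same way on some arrays: 61 of 72 mitochondrial ribosomal protein genes and 34 of 40 proteasome genes were above in percussion sham 2, and 63 of 72 and 31 of 40 in percussion trauma 3.

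The shared part was small in size, and the spread of the subunit genes within groups fell once it was taken out. The array median of the subunit genes, each centred on its mean over 13 arrays, was 0.079, -0.037 and 0.084 in rotational sham, 0.131, 0.001 and 0.083 in rotational trauma, -0.105, -0.218 and 0.102 in percussion trauma and -0.085, 0.081, -0.064 and -0.093 in percussion sham. The percussion trauma arrays thus held both the lowest value of the series and one near the highest. The median SD within groups was 0.112 for subunit genes, 0.113 for the 8407 other genes whose mean signal was at or above that of the lowest subunit gene, and 0.152 for all genes. After the array median of the subunit genes was subtracted, the SD of the subunit genes fell to 0.0555. That median came from the same genes, so some fall is built in, and no other list was treated in this way. Without percussion trauma 3 the member median after percussion trauma was -0.105, and without percussion trauma 2 it was 0.045.

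**Figure D5:**
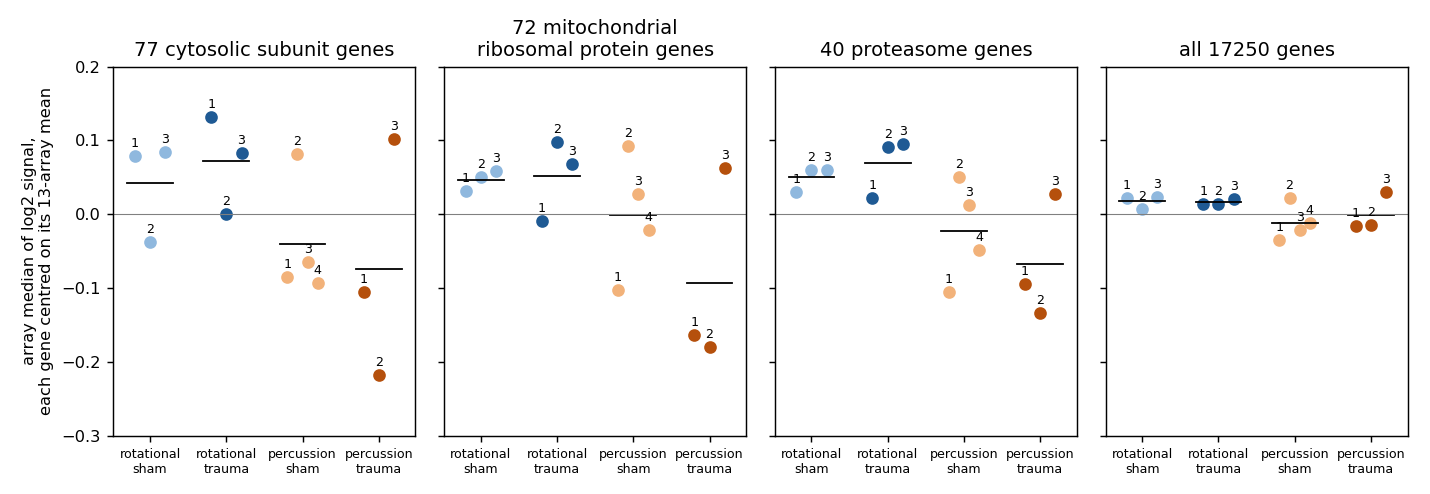
Median over a gene list of the log2 signal, each gene centred on its mean over 13 arrays (y axis), for every array by group (x axis), for 77 cytosolic subunit genes, 72 mitochondrial ribosomal protein genes, 40 proteasome genes and all 17250 genes. Points are arrays labelled with their replicate number, and horizontal bars are group means. The subunit genes of percussion trauma spread from -0.218 to 0.102, while the median of all genes stays near 0.

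The contrasts were also read by the pyrimidine run, with no test of the difference. The 40 subunit genes with the run near the start had medians of 0.038 after rotational trauma, -0.014 after percussion trauma and -0.104 between shams. The 22 without it had 0.026, -0.001 and -0.094. Of the genes whose starts are printed above, Rps7 and Rps10 carry a run and passed between shams. Rplp0, Rpl10 and Rpl19 carry one and did not pass, and neither did Rpl11, which has none. Rps16, whose start is not printed, has no such run and passed with its chosen probe. Its sham difference of -0.40 was the lowest of the 22 genes without a run. Calls between shams were thus found with and without it.

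Different probes of a gene mostly gave like differences. For the 48 members with more than 1 passing probe, the 2 brightest disagreed by a median of 0.030 after rotational trauma, 0.080 after percussion trauma and 0.083 between shams. They disagreed by over 0.25 for 3 members after rotational trauma (Rps16, Rps4y2 and Rpl19) and for 0 after percussion trauma. Between shams they disagreed by over 0.25 for 6 members, Rpl36 among them, and the largest disagreement was that of Rps16. The second Rps4y2 probe, which read -2.49 to -1.42 over the 13 arrays, was higher by 0.62 after rotational trauma (adjusted p over all passing probes 0.616).

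Rpl41 is the smallest protein of the ribosome and Rps23 lies at the decoding centre. Rpl41 read 7.58, 7.59 and 7.64 in rotational sham, 7.72, 7.54 and 7.65 in rotational trauma, 7.57, 7.43 and 7.73 in percussion trauma and 7.50, 7.69, 7.52 and 7.50 in percussion sham. Its trauma differences were 0.03 and 0.02 (SE 0.09 and 0.08), and those of Rps23 were 0.04 and -0.02. No spot of a member's chosen probe was saturated on any array (0), and the other probes of members were not counted.

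The genes that work beside the ribosome were read from lists of their own, and by limma 0 genes passed after either trauma in each of the 7 lists. At an unadjusted p under 0.05, the rotational and percussion counts were 0 and 1 for subunit partners, 0 and 2 for elongation, 1 and 4 for initiation, 0 and 4 for biogenesis and 0 and 1 for the proteasome. They were 3 and 5 for mTOR and Myc regulators (13% and 21.7%) and 3 and 10 for mitochondrial ribosomal proteins (4.17% and 13.9%), beside 6.60% and 11.3% of all genes. For 6 subunit partners missed by the naming rule, such as Fau and Gnb2l1, the medians were 0.039 and -0.057. For 12 elongation and termination factors they were 0.017 and 0.034, with Eef1a1, which delivers transfer RNA, at -0.04 and 0.20 and Eef2, the translocase, at -0.11 and 0.19. Tpt1, a gene of the partner list that has the same kind of messenger start as the ribosomal proteins, differed by 0.17 (SE 0.08, limma adjusted p = 0.774) after rotational trauma and by 0.007 after percussion trauma. Medians were -0.004 and 0.001 for 34 initiation factors and -0.016 and -0.012 for 43 genes of ribosome biogenesis, where Npm1 differed by 0.02 and -0.05, Ncl by 0.02 and -0.02 and Fbl by -0.02 and -0.03. In the list of 23 mTOR and Myc regulators, Ddit4, an inhibitor of mTOR, read 1.17, 1.59 and 1.38 in rotational sham, 2.14, 2.58 and 2.09 in rotational trauma, 2.33, 2.34 and 1.83 in percussion trauma and 2.45, 2.58, 2.68 and 2.82 in percussion sham. Its rotational groups did not overlap, with trauma higher, as for 6.87% of all genes. Nor did its percussion groups, with trauma lower, as for 4.43% of all genes. The rotational difference was 0.89 (SE 0.18, limma adjusted p = 0.213), and the difference of the trauma contrasts was -1.35 (adjusted p = 0.159). Neither passed. Mtor differed by -0.10 and 0.19, Myc by 0.14 and 0.27, Larp1, which binds pyrimidine-run messengers, by 0.06 and -0.10, and Eif4ebp1 by 0.32 and -0.16.

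Between shams 5 of these 7 lists held calls. They were 0 of 6 subunit partners, 0 of 12 elongation and termination factors, 5 of 34 initiation factors (14.7%, all lower in percussion sham, with Pabpc1 at -0.26 and Eif3e at -0.41), and 11 of 43 biogenesis genes (25.6%, 8 higher and 3 lower, with Taf1c at 0.84 and Rrn3, a factor of RNA polymerase I, at -0.88). Of the 23 mTOR and Myc regulators, 8 passed (34.8%, 5 higher and 3 lower, with Rps6kb2, an S6 kinase, at 1.14 and Ddit4 at 1.25). The mitochondrial ribosomal proteins are the family nearest in kind. Of their 72 genes 13 passed (18.1%, 4 higher and 9 lower), and Mrpl43 was at -2.97. After percussion trauma 59 of these 72 were lower than sham, with a median of -0.098, and none passed. Of 40 proteasome genes 5 passed between shams (12.5%, all lower). These shares stand beside 22.0% of all genes, and differences between lists were not tested.

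Markers of other cell types and tissues were read beside these values. All 6 of 6 meningeal and fibroblast markers were higher after both traumas (medians 1.17 and 1.30, 0 passed), with a summed signal of 5.03 to 9.25 in rotational sham, 12.4 to 21.8 in rotational trauma, 14.8 to 32.0 in percussion trauma and 5.26 to 12.3 in percussion sham. Of the 6 striatal markers 5 were measured. Their summed signal was 6.21 to 16.6 in rotational sham and 5.14 to 5.70 in percussion sham, and 3 of them passed as lower in percussion sham. Oligodendrocyte markers had a rotational median of 0.43 (5 of 6 higher, 0 passed) and a percussion median of -0.08. Between shams, 2 of 6 cortical neuron markers passed as lower and 1 of 6 did so for microglia and for endothelium, 1 of 6 passed as higher for oligodendrocytes and for meninges, and 0 passed for interneurons and astrocytes. Of all genes 10.9% passed as lower and 11.1% as higher. Of the choroid plexus markers 2 of 6 were measured and of the red blood cell markers 5 of 6, with 0 past the test in each contrast. The part of these cells and tissues in the ribosomal protein values was not tested.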

How the data were processed

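RNA was labelled with Cy3 after oligo-dT amplification and hybridised to 13 one-colour Agilent arrays. Per the file headers, Feature Extraction 10.5.1.1 gave each spot a background-subtracted intensity (processed signal), which is the deposited value used here. The authors' deposited table holds log2 values of the same arrays, with scaling steps not given in the sources used here, and served as an alternative. Control spots were left out, spots of a probe averaged, log2 values lowered by the array's 75th percentile, and the brightest passing probe taken per gene. Fits used limma 3.58.1 in R 4.3.3 (mean per group, all 13 arrays, eBayes, two-sided, 9 residual degrees of freedom), with Benjamini-Hochberg adjustment over 17250 genes, and were tested on simulated data. The number of arrays limits the precision. Samples are labelled as separate, but nothing says how animals map to them, so p-values measure the spread between these samples. Named members were those with the smallest p-values in each direction of each contrast, plus a fixed list of subunits of known role. Members and lists were chosen with earlier results of these data known. Alternatives changed the background, scaling, filter, probe rule, names, model and samples.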

Additional observations from a re-analysis of the deposited data

Results flagged for a closer look

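Percussion sham 2 stood above the other percussion shams for 2 members and for the family as a whole. Rpl41 read 7.69 there against 7.50 to 7.52 on the other 3 arrays, and Rps28 read 5.39 against 5.27 to 5.29. The array median of the 77 subunit genes was 0.081 there and -0.093 to -0.064 on the others. The same array was also the highest percussion sham for mitochondrial ribosomal proteins (0.093 against -0.102 to 0.027) and proteasome genes (0.050 against -0.106 to 0.013). Only the group of 4 arrays could be examined in this way. These were 3 of 37 groups of values examined for a single array far from the rest, and chance alone gives about 1 in 20.

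The second probe of Rps16, which was not the probe chosen for the gene, read 2.47 in rotational trauma 1 against 0.83 to 0.99 in the 3 rotational shams. The chosen Rps16 probe read 5.67 on that array, and 5.72 and 5.84 on the others of its group. No member of the 36 checked had every array of one model moving up and every array of the other moving down.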

How the results depend on the processing

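No member passed after rotational trauma under any of the alternatives run. After percussion trauma the members called were 0, but 1 (Rpl3l) with no filter on dim probes and 1 without percussion trauma 2 and 3 (chosen after seeing the data), which leaves 1 trauma array assumed to vary like the other groups. Without one array at a time it stayed at 0. Between shams the 7 calls became 4 with the replicate block, where calls over all genes were 1554 higher and 1359 lower. They became 4 with only the 77 subunit genes and 13 of 148 member probes with every passing probe on its own. Both were added after seeing the data, and the share over all probes is not given here. The calls ranged from 2 to 9 when arrays were left out one at a time. Same-numbered samples correlated at -0.064 to 0.282, and not every pair exceeded 0.1, so they were not treated as pairs. Rps16 between shams turned to 0.82 with the mean of all passing probes. With no filter on dim probes the genes called were 1854 after rotational trauma, 3112 after percussion trauma, 7494 between shams and 3897 for the difference. The main fit had 4, 0, 3789 and 0. Of the unfiltered calls 3.78%, 92.3%, 26.3% and 94.6% were lower, in the same order. Calls after rotational trauma were 0 with quantile normalization, 1 with the replicate block and 2 with the array row, and 0 to 21 without one array. Calls after percussion trauma were 1 in the authors' table and 0 to 8 without one array. Calls for the difference were 1 with an intensity trend, 2 with the array row and 0 to 16 without one array, and between shams 1762 to 4229. With median scaling 2370 of the sham calls were lower and 1381 higher. Member medians without one array ran from 0.0012 to 0.072 (rotational), -0.105 to 0.045 (percussion) and -0.124 to -0.064 (shams). Rpl3l has no value where probes had to pass on all 13 arrays, Rpl10l none under updated names, and the difference has none in fits of only the compared groups. Causes were not tested.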
